A study of Tupaia belangeri with 15 samples.

Results

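SLIT ligands and ROBO receptors were followed through the retina of the tree shrew (TS, Tupaia belangeri), across its cell classes and across postnatal stages. The group holds the ligands SLIT1, SLIT2 and SLIT3 and the receptors ROBO1, ROBO2 and ROBO3, which were taken by gene name from the deposited gene list and are 6 of its 83605 features. Nuclei were isolated from 15 frozen TS retinas and sequenced with droplet-based single-nucleus RNA sequencing, in which unique molecular identifiers (UMIs) count transcripts. The stages were Infancy, Mature and Senile, with 5 retinas each. The study's methods describe healthy donors, 5 animals in each group, with infant animals in their first months, mature animals some years old and senile animals several years older. Ages of single animals are not given in the labels, which name no genotype, transgene or treatment and do not say whether animals share a litter. The senile animals came from another supplier than the infant and mature ones, so stage and supplier cannot be told apart in contrasts with the senile group. The headers of the count files name Cell Ranger 6.1.2 for 7 retinas and 7.0.1 for the other 8, spread over all stages. No retina was counted with both versions. The version thus cannot be told apart from other differences between these sets of retinas, which also differed in UMIs per nucleus.

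SLITs are large secreted proteins that bind the first immunoglobulin domain of ROBO receptors on growth cones and migrating cells, and classically repel them. In the retina the pathway is known for keeping the axons of retinal ganglion cells (RGCs) in the optic fibre layer and for shaping their path at the chiasm, with ROBO2 as the main receptor of RGC axons. ROBO3 is the divergent member that steers commissural axons and, in mammals, binds SLITs poorly, while SLITs also act on blood vessels and on dendrite growth.

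The 15 libraries held 4269 to 9856 barcodes and 13429873 to 58734300 UMIs each, and 1793 barcodes occurred in more than 1 library. After filters and removal of 7940 predicted doublets, 111825 nuclei were kept, of which 55381 passed a gate on marker genes for 1 of 9 classes. These were 14533 cones, 739 rods, 14307 bipolar cells (BCs), 619 horizontal cells (HCs), 12142 amacrine cells (ACs), 4880 RGCs, 6793 Müller cells, 1081 astrocytes and 287 microglia. Several defining markers were at 0 UMIs in all libraries, among them GAD2, SLC32A1 and POU4F2. The gate kept unequal parts of the classes, with 14533 cones beside 15707 nuclei in clusters named cones, but 12142 ACs beside 34637 and 14307 BCs beside 32311. Kept nuclei outside the classes held 560 CPM of ROBO1 and 2700 CPM of ROBO2, against 355 and 2340 CPM inside, and 26.4% (ROBO3) to 50.9% (ROBO2) of a member's UMIs in kept nuclei lay inside, so class shares below are shares of gated nuclei alone. The AC marker list reached 18.6% of its AC level in HCs, 18.4% in RGCs and 15.2% in Müller cells, and the Müller list 16.3% of its own level in astrocytes. Whether these values reflect carry-over between classes was not tested, nor was its part in the results below.

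The members differed widely in abundance. ROBO2 had 1162783 UMIs over all libraries, ROBO1 208040, SLIT2 98993, SLIT3 26428, SLIT1 23446 and ROBO3 532. Nuclear RNA is rich in unspliced transcripts, to which long genes contribute more, so the counts were also set against gene span. Per kilobase of the span of each gene in RefSeq, ROBO2 had 1660 UMIs, SLIT2 342, ROBO1 163, SLIT1 103, SLIT3 33.8 and ROBO3 13.4. ROBO2 thus led and ROBO3 was last on either scale, while SLIT2 stood above ROBO1 per kilobase and below it in total. Features annotated as antisense to a member carried 22.7% as many UMIs as SLIT3 and 21.0% as many as ROBO1, most of the latter in ROBO1-AS-7 with 36623 UMIs. Whether the counting kept strands apart is not stated, so the reads of these pairs may not be separable.

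Class levels were computed by summing UMIs over the nuclei of a class in a retina and dividing by all UMIs of those nuclei, as CPM (UMIs scaled to 1e+06 in total). Retinas with fewer than 10 nuclei in a class were left out of it. In such sums, fewer transcribing cells within a class and less RNA per cell cannot be told apart. Neighbours in the order of classes were compared within retinas on log2(CPM + 1) by a 2-sided exact sign-flip permutation test, with Benjamini-Hochberg adjustment over 48 neighbouring pairs, and 10 pairs passed at 0.05. The order was set by the mean of these same values, so the pairs and their direction were chosen on the data tested. Folds are geometric means over retinas. The p-values measure the spread between these retinas.

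**Figure D1:**
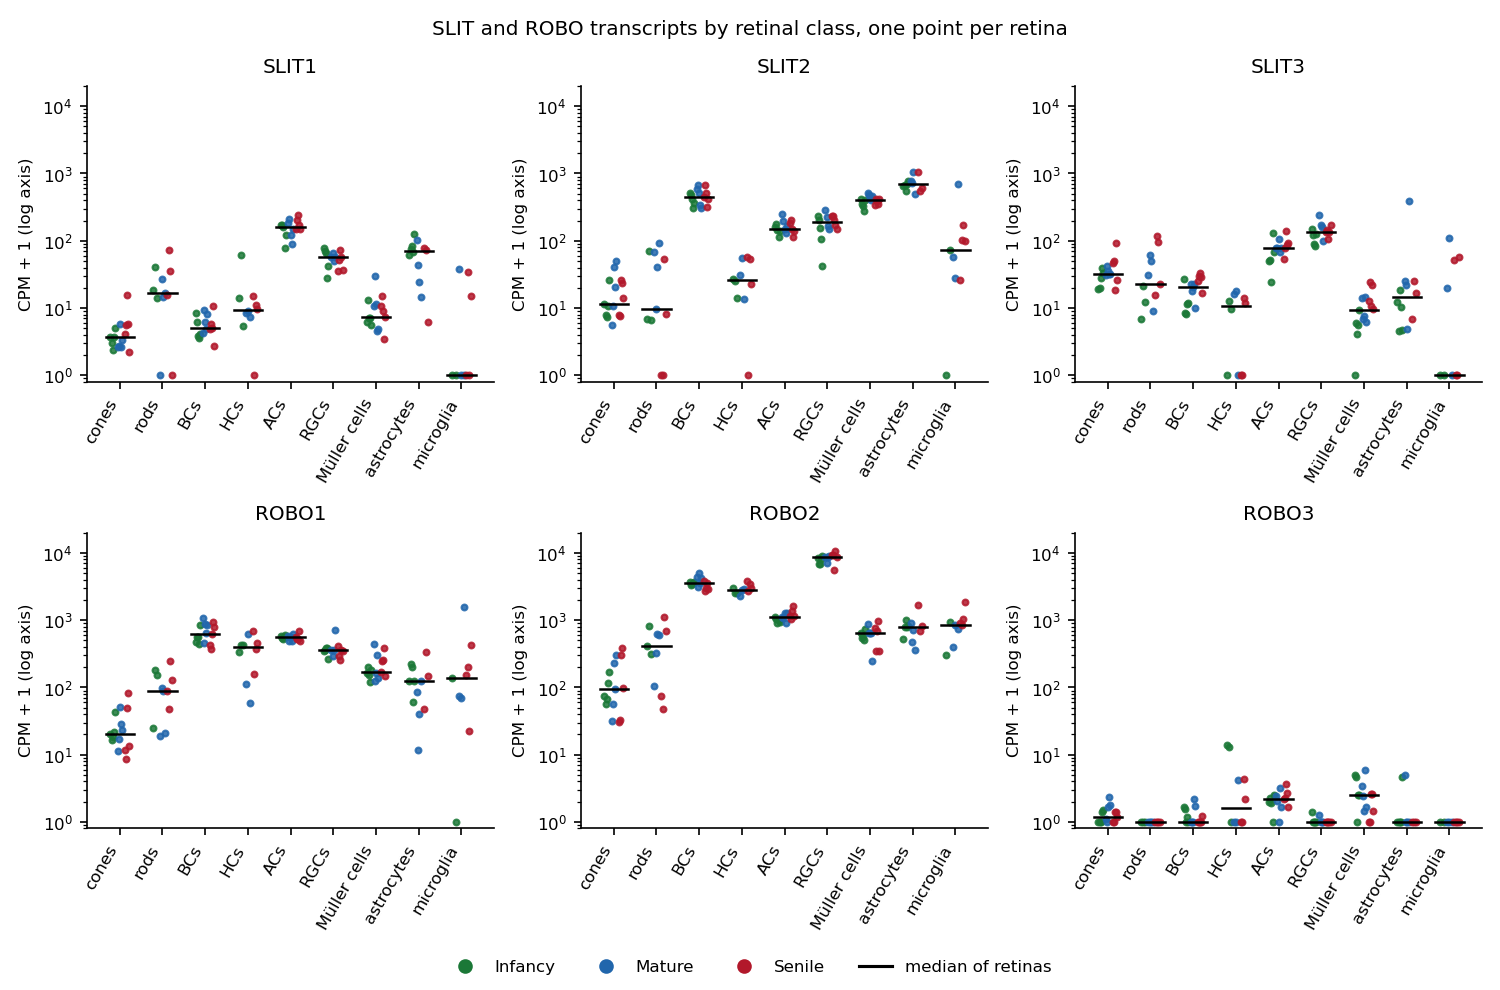
CPM + 1 of the 6 genes on a log axis in each of 9 retinal classes; each point is 1 retina coloured by stage and the black bar is the median. SLIT1 is highest in ACs (median 157 CPM), SLIT2 in astrocytes (687), SLIT3 and ROBO2 in RGCs (136 and 8640), ROBO1 in BCs (617) with ACs close behind (553), and ROBO3 is near 0 throughout.

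Among the ligands, SLIT1 was mainly an AC transcript, and 72.9% of its UMIs in gated nuclei lay in ACs, which held 22.6% of all UMIs. Its level was 77.4, 157 and 237 CPM in ACs (lowest, median and highest retina) and 27.4, 56.8 and 76.0 CPM in RGCs. Every AC value lay above every RGC value. ACs exceeded RGCs 2.99-fold in 14 of 14 retinas (log2 difference 1.58 ± 0.305, SD, adjusted p = 0.00195, exact sign-flip permutation test). Astrocytes were at 5.23 to 123 CPM and were not separable from RGCs (adjusted p = 1.0, exact test), and the medians of BCs, cones and Müller cells were 4.06, 2.69 and 6.35 CPM.

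SLIT2 was spread over glia and neurons. Astrocytes had 495, 687 and 1040 CPM, BCs 302, 443 and 676 CPM and Müller cells 279, 408 and 509 CPM. Astrocytes were 1.58-fold above BCs in 12 of 12 retinas (log2 difference 0.662 ± 0.409, SD, adjusted p = 0.00391, exact sign-flip permutation test), although the ranges overlapped across retinas. This call was lost with classes taken from clusters (log2 difference 0.56) and with a gate without agreement of the neighbours (0.37). BCs and Müller cells could not be ordered (1.11-fold, higher in 10 of 15 retinas, adjusted p = 0.249, exact test). RGCs followed at 40.8, 188 and 281 CPM and lay below Müller cells in 14 of 14 retinas by 2.33-fold (adjusted p = 0.00195, exact test). ACs at 114, 148 and 253 CPM were not separable from RGCs, whereas the median of cones was 10.3 CPM. BCs, with 19.9% of all UMIs in gated nuclei, held 41.2% of those of SLIT2, Müller cells 17.8% and astrocytes 5.72%.

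SLIT3, the ligand best known from muscle, vessels and kidney, had its highest level in RGCs at 81.6, 136 and 238 CPM. ACs had 23.4, 77.3 and 137 CPM and cones 17.4, 31.1 and 90.8 CPM. RGCs exceeded ACs 1.81-fold in 12 of 14 retinas (log2 difference 0.854 ± 0.715, SD, adjusted p = 0.0117, exact sign-flip permutation test) and ACs exceeded cones 2.2-fold in 13 of 15 (adjusted p = 0.00293, exact test). The AC level differed between the retinas of the Cell Ranger versions, with a median of 52.9 CPM for 6.1.2 and 88.1 CPM for 7.0.1. Within versions the RGC to AC difference was 1.37 and 0.34 on the log2 scale, and with a stricter gate it was 0.58 and no longer called. In astrocytes 11 retinas were at 3.51 to 24.1 CPM and the retina Mature 4 at 385 CPM from 28 UMIs.

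Among the receptors, ROBO1 was highest in BCs and ACs, followed by HCs and RGCs. BCs had 369, 617 and 1060 CPM, ACs 483, 553 and 689 CPM, HCs 57.7, 401 and 685 CPM and RGCs 259, 359 and 710 CPM. BCs and ACs were not separable (log2 difference 0.182 ± 0.443, SD, higher in BCs in 10 of 15 retinas, adjusted p = 0.305, exact sign-flip permutation test), and the spread of BCs was far the wider. ACs were 1.57-fold above RGCs in 13 of 14 retinas (adjusted p = 0.00293, exact test). Müller cells at 119, 167 and 436 CPM were 2.15-fold above astrocytes in 9 of 12 retinas (adjusted p = 0.0422, exact test). Cones were lowest, with a median of 19.0 CPM.

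ROBO2, the receptor of RGC axons, was highest in RGCs themselves. They had 5490, 8640 and 10800 CPM, BCs 2710, 3560 and 4980 CPM and HCs 2270, 2850 and 3830 CPM. No RGC value overlapped with those of any other class. RGCs exceeded BCs 2.3-fold in 14 of 14 retinas (log2 difference 1.204 ± 0.282, SD, adjusted p = 0.00195, exact sign-flip permutation test). BCs and HCs were not separable (1.27-fold, 7 of 10 retinas, adjusted p = 0.0938, exact test), but HCs were 2.47-fold above ACs at 897, 1100 and 1620 CPM (10 of 10 retinas, adjusted p = 0.0117, exact test). Astrocytes, microglia and Müller cells had medians of 804, 854 and 641 CPM. RGCs held 50.3% of ROBO2 UMIs in gated nuclei, against 14.6% of all UMIs.

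Cones were at 29.6 to 72.5 CPM of ROBO2 in retinas counted with version 6.1.2 and at 93.9 to 387 CPM in those counted with 7.0.1, without overlap. SLIT2 in cones was 4.62 to 10.3 CPM and 9.78 to 48.4 CPM, with a small overlap. The low values in cones, which stand 83.5-fold under RGCs for ROBO2, thus also differ between the retinas of the versions. The part of free RNA in them was not tested.

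ROBO3 was close to the limit of detection. No class had a retina above 13.0 CPM, ACs held 48 UMIs in 15 retinas, Müller cells 32 and RGCs 2, and rods and microglia had 0. None of its neighbouring classes differed by the exact test.

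The share of nuclei with at least 1 UMI gave a related picture once nuclei were thinned to 1000 UMIs to equalise depth. Nuclei with fewer UMIs were left out, among them 795 of 14307 BCs, 404 of 6793 Müller cells and 113 of 287 microglia. ROBO2 was found in 96.2% of thinned RGC nuclei (95% Clopper-Pearson interval 95.6 to 96.7, counting error only) and in 99.1% without thinning. HCs followed with 90.3%, BCs with 62.4%, ACs with 37.0% and Müller cells with 27.5%. Cones, the neurons with least ROBO2, still had 6.35%, and 19.1% without thinning, at a median of 3216 UMIs per nucleus against 5313.5 in RGCs. ROBO2 was thus found in nearly every RGC, and 94.6% of RGC nuclei had 5 or more UMIs.

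The other members were found in a minority of nuclei of most classes. SLIT2 was in 51.1% of thinned astrocytes, 29.6% of Müller cells, 17.3% of BCs, 13.2% of RGCs and 0.978% of cones. SLIT1 was in 13.0% of thinned ACs against 0.363% of cones, and SLIT3 in 11.2% of RGCs, 4.43% of ACs and 3.12% of cones. ROBO1 was in 22.6% of ACs, 19.3% of RGCs, 18.5% of BCs and 1.73% of cones. BCs thus had a high mean of SLIT2 and of ROBO1 from a small share of nuclei, and the 10% of BC nuclei with most UMIs of a gene held 78.4% of SLIT2 and 83.2% of ROBO1 UMIs, against 43.9% for ROBO2. For SLIT3 in ACs these nuclei held 98.1%, and the measure is bound to reach its maximum where few nuclei have a UMI.

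Subclasses were therefore separated by marker genes in a step chosen after the class values had been seen. ON BCs (6038 nuclei), which depolarise at light onset, were taken by ISL1, GRM6 and TRPM1, and OFF BCs (7058 nuclei) by the kainate receptor gene GRIK1. Starburst ACs (1814), the cholinergic cells of direction selectivity, had at least 2 of CHAT, SLC5A7 and SLC18A3, glycinergic ACs (3991) had SLC6A9, and other ACs (4992) had none of these. L-cones (11527) and S-cones (402) were told apart by OPN1LW and OPN1SW. Of 25 comparisons within retinas, 19 passed at an adjusted p of 0.05 in the exact sign-flip permutation test. The share of all features passing such comparisons was not computed, so the count does not set the members apart from other genes.

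**Figure D2:**
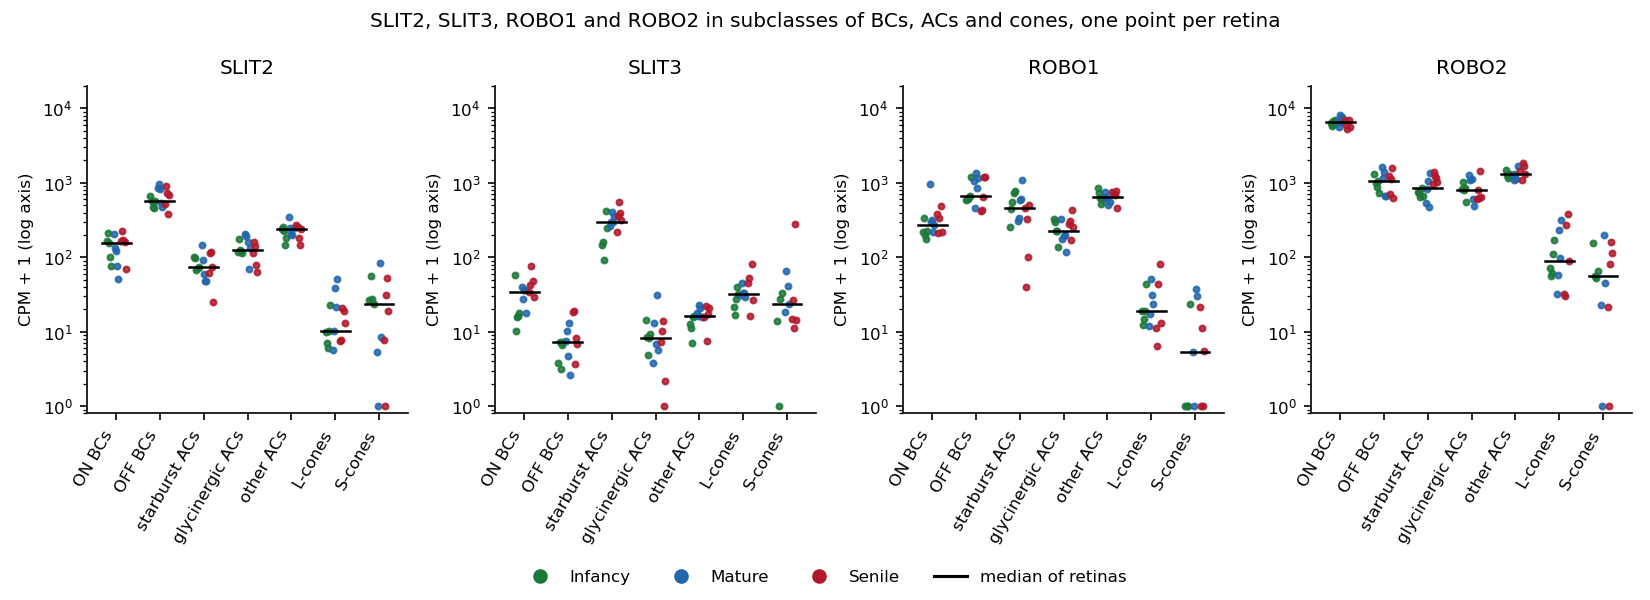
CPM + 1 of SLIT2, SLIT3, ROBO1 and ROBO2 on a log axis in 7 marker-defined subclasses of BCs, ACs and cones; each point is 1 retina coloured by stage and the black bar is the median. ROBO2 and SLIT3 are higher in ON BCs and SLIT2 and ROBO1 in OFF BCs, and SLIT3 in ACs is concentrated in starburst ACs (median 301 CPM).

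ON and OFF BCs carried opposite sets of members. ROBO2 was 5330, 6670 and 8280 CPM in ON BCs and 628, 1060 and 1640 CPM in OFF BCs, without overlap. The ON value was 6.49-fold higher in 15 of 15 retinas (log2 difference 2.698 ± 0.479, SD, adjusted p = 0.000139, exact sign-flip permutation test). The ON range overlapped that of RGCs, which was 5490 to 10800 CPM. SLIT3 went the same way, with 9.36, 33.4 and 75.8 CPM in ON BCs and 1.61, 6.28 and 17.8 CPM in OFF BCs, 4.28-fold.

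SLIT2 went the other way, with 49.9, 157 and 224 CPM in ON BCs and 381, 576 and 951 CPM in OFF BCs, and again the ranges did not overlap. Its ON level was 0.207 of the OFF level and lower in 15 of 15 retinas (adjusted p = 0.000139, exact sign-flip permutation test). ROBO1 was also lower in ON BCs in 15 of 15 retinas, with 178, 271 and 966 CPM against 415, 663 and 1360 CPM, a ratio of 0.379 (adjusted p = 0.000139, exact test). SLIT1 did not pass (1.56-fold, adjusted p = 0.062, exact test). The median depth was 2750.5 UMIs per nucleus in ON BCs and 2481 in OFF BCs.

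Among ACs, SLIT3 marked the starburst cells. It was 91 to 545 CPM with a median of 301 CPM there, 0 to 30.3 CPM in glycinergic ACs and 6.0 to 21.7 CPM in other ACs, so that no starburst value overlapped with the rest. Starburst ACs exceeded other ACs 18.2-fold in 15 of 15 retinas (log2 difference 4.183 ± 0.645, SD, adjusted p = 0.000139, exact sign-flip permutation test). Starburst nuclei also had the deepest median of the AC subclasses, at 3810 UMIs against 2656 in glycinergic and 3307 in other ACs.

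SLIT1, SLIT2 and ROBO2 had their highest medians in the other ACs, a group set only by the lack of marker UMIs. SLIT2 was 144, 236 and 343 CPM in other ACs, 62.4, 123 and 208 CPM in glycinergic and 24.1, 73.9 and 144 CPM in starburst ACs, with ratios to other ACs of 0.566 and 0.334. ROBO1 was 458, 638 and 841 CPM in other ACs, 116, 226 and 432 CPM in glycinergic and 38.4, 452 and 1100 CPM in starburst ACs. Glycinergic ACs were at 0.361 of other ACs in ROBO1 and lower in 15 of 15 retinas (adjusted p = 0.000139, exact sign-flip permutation test), while the starburst ratio was 0.584 and lower in 10 of 15 retinas (adjusted p = 0.0479, exact test). That direction differed between the retinas of the Cell Ranger versions, since starburst ACs were lower in all 7 retinas of 6.1.2 and higher in 5 of 8 of 7.0.1. ROBO2 was at 0.648 and 0.604 and SLIT1 at 0.848 and 0.723 of other ACs in starburst and glycinergic ACs, and each of these passed the exact test (adjusted p between 0.000139 and 0.000436).

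In cones the members were low, and S-cones were too few for a comparison, with 13 to 62 nuclei in each of 13 retinas. ROBO1 was 5.38, 18.0 and 81.5 CPM in L-cones and 0, 4.39 and 36.3 CPM in S-cones, where 6 retinas were at 0. ROBO2 was 29.3, 89.7 and 383 CPM in L-cones and 0, 55.0 and 196 CPM in S-cones. SLIT1 was at 0 in S-cones of 10 retinas, against a median of 2.69 CPM in L-cones. These 3 genes were among the 19 calls, but sums at 0 from so few nuclei can set such a call, and no difference is read from them.

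Members were next compared in nuclei with and without a UMI of another member of the same class and retina. Of 85 such comparisons, 36 passed at an adjusted p of 0.05 in the exact sign-flip permutation test, 23 higher and 13 lower. After thinning 24 of 80 passed, of which 18 had passed before in the same direction, 9 higher and 9 lower. The excess of higher pairs was thus not kept at equal depth. How often other genes would pass was not computed. In ACs, nuclei with SLIT3 had 184 CPM of ROBO1 on average and those without had 616 CPM (ratio 0.276, lower in 15 of 15 retinas, adjusted p = 0.000648, exact test). ROBO1 and ROBO2 went together over all ACs, where ROBO2 averaged 1550 CPM with and 856 CPM without a ROBO1 UMI, and in Müller cells, at 944 and 504 CPM, each higher in 15 of 15 retinas. The AC pairs were not compared within AC subclasses, and the part of the subclass mix in them was not tested. ROBO1 and ROBO2 averaged 650 and 1360 CPM in other ACs, 473 and 913 CPM in starburst and 245 and 852 CPM in glycinergic ACs. In RGCs ROBO2 was lower with ROBO1, at 7850 and 8550 CPM (ratio 0.911, adjusted p = 0.0196, exact test). Over all BCs it was also lower, at 3330 and 3710 CPM (ratio 0.894, adjusted p = 0.00634, exact test), but not within either BC type. It was 1.17-fold higher in OFF BCs (adjusted p = 0.0126, exact test; 1.03-fold and not called after thinning) and 1.09-fold in ON BCs, which did not pass (adjusted p = 0.228; 1.21-fold and adjusted p = 0.0332 after thinning).

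In BCs, SLIT2+ nuclei had more ROBO1. They averaged 1370 CPM of ROBO1 and those without 380 CPM, 3.45-fold and higher in 15 of 15 retinas (adjusted p = 0.000648, exact sign-flip permutation test; 14 of 15 after thinning). In the other direction, SLIT2 averaged 509 CPM with and 435 CPM without a ROBO1 UMI and did not pass (1.18-fold, adjusted p = 0.0792, exact test). Because both genes were higher in OFF BCs, the pair was also compared within each type. ROBO1 averaged 1100 CPM with and 176 CPM without SLIT2 in ON BCs (6.32-fold, 14 of 14 retinas, adjusted p = 0.000366, exact test). It averaged 1390 CPM with and 529 CPM without SLIT2 in OFF BCs (2.54-fold, 15 of 15 retinas, adjusted p = 0.000275, exact test). The pair thus passed within both types, and the folds after thinning were 6.07 and 2.09.

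**Figure D3:**
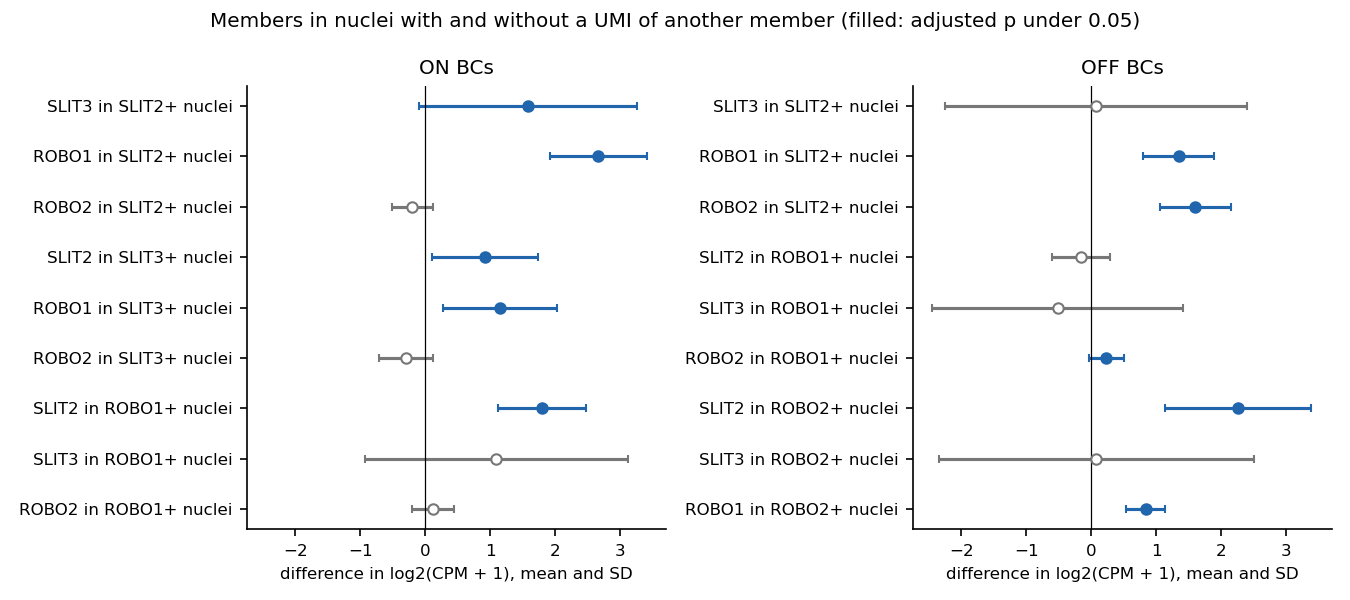
Difference in log2(CPM + 1) of a member between nuclei with and without a UMI of another member, in ON and OFF BCs; points are means and bars SDs over retinas, filled where the adjusted p is under 0.05. ROBO1 is higher in SLIT2+ nuclei of both types, and ROBO2 is higher in SLIT2+ nuclei of OFF BCs (3.03-fold) and not of ON BCs (0.872, before thinning).

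ROBO2 behaved differently in the pair with SLIT2. In OFF BCs it averaged 1850 CPM with and 656 CPM without SLIT2 (3.03-fold, 15 of 15 retinas, adjusted p = 0.000275, exact sign-flip permutation test; 3.51-fold after thinning). In ON BCs it averaged 6000 and 6740 CPM (ratio 0.872, adjusted p = 0.0581, exact test), and after thinning it passed as lower (ratio 0.825, adjusted p = 0.0257, exact test). Over all BCs the sign was the opposite of that in OFF BCs, with 3000 and 3860 CPM (ratio 0.769, adjusted p = 0.00148, exact test). The difference between the types was not tested. In the other direction, SLIT2 averaged 296 CPM with and 85.5 CPM without a ROBO1 UMI in ON BCs (3.47-fold, 14 of 14 retinas, adjusted p = 0.000366, exact test). In OFF BCs it averaged 594 and 663 CPM and did not pass (adjusted p = 0.228, exact test).

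RGC subsets were taken by single marker genes, in a step chosen with earlier results of these data known. FOXP2, a forkhead factor, was found in 920 RGC nuclei (18.9%), SPP1, which encodes osteopontin and marks alpha RGCs, in 700, RUNX1, a runt-domain factor, in 369, CALCRL, a peptide hormone receptor, in 341, TBR1, a T-box factor, in 307 and EOMES, a T-box factor of melanopsin RGCs, in 132. Of 30 comparisons with RGCs lacking the marker, 14 passed at an adjusted p of 0.05 in the exact sign-flip permutation test. Here too the share of all features was not computed, and the count does not set the members apart. With the retinas of version 6.1.2 alone 12 of 25 passed, and with those of 7.0.1 only 5 could be run and 0 passed. The other comparisons lacked retinas with 7.0.1, so this 0 does not decide whether the 14 calls hold there.

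RUNX1+ RGCs had more ROBO2 and less ROBO1. ROBO2 was 12100, 14800 and 17900 CPM with and 4840, 7870 and 8710 CPM without RUNX1, with no overlap, 2.04-fold in 10 of 10 retinas (log2 difference 1.031 ± 0.237, SD, adjusted p = 0.00533, exact sign-flip permutation test). ROBO1 was 26.5, 79.3 and 179 CPM with and 275, 375 and 444 CPM without, again with no overlap and lower in 10 of 10 retinas (ratio 0.204, adjusted p = 0.00533, exact test). The receptors were therefore opposite in these nuclei, whose median depth was 5410 UMIs against 5304 for the others.

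FOXP2+ RGCs had more ROBO1 and less SLIT2. ROBO1 was 206, 581 and 896 CPM with and 214, 289 and 357 CPM without FOXP2, 1.97-fold and higher in 12 of 13 retinas (adjusted p = 0.00366, exact sign-flip permutation test). SLIT2 was 44 to 194 CPM with and 40 to 324 CPM without, a ratio of 0.544, lower in 12 of 13 retinas (adjusted p = 0.00439, exact test). ROBO2 was slightly but evenly higher, 1.17-fold in 13 of 13 retinas. The ranges of ROBO1 and of SLIT2 overlapped across retinas.

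SPP1+ RGCs were lower in both receptors, with ROBO2 at 4680, 5420 and 7240 CPM against 5550, 8740 and 9690 CPM (ratio 0.691, lower in 11 of 11 retinas, adjusted p = 0.00488, exact sign-flip permutation test). ROBO1 in them was 135 to 272 CPM against 259 to 459 CPM, a ratio of 0.553 (adjusted p = 0.00533, exact test), and SLIT1 was at 0.636 (adjusted p = 0.0398). These nuclei were also deeper, at a median of 6589 UMIs against 5146, and the part of depth was not tested.

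CALCRL+ and TBR1+ RGCs had less SLIT2. SLIT2 was 26.9, 108 and 204 CPM with and 105, 208 and 298 CPM without CALCRL (ratio 0.453, lower in 11 of 12 retinas, adjusted p = 0.00533, exact sign-flip permutation test). It was 0, 88.3 and 248 CPM with and 103, 205 and 291 CPM without TBR1 (ratio 0.255, lower in 10 of 12 retinas, adjusted p = 0.0061, exact test). Only 297 TBR1+ nuclei entered and the log2 difference was -1.973 ± 2.22 (SD). Sums at or near 0 can thus set the size of this ratio. ROBO2 moved in opposite directions, 1.31-fold with CALCRL and 0.714 with TBR1, each in 12 of 12 retinas. ROBO1 was lower with CALCRL (ratio 0.587, 10 of 12 retinas, adjusted p = 0.0293, exact test). The receptors were thus opposite with CALCRL as with RUNX1. SLIT1 was lower with TBR1 (ratio 0.614, 10 of 12 retinas, adjusted p = 0.00533, exact test). EOMES+ RGCs had 0 to 84.3 CPM of SLIT2 against 163 to 243 CPM, and 3430 to 5780 CPM of ROBO2 against 7010 to 9480 CPM, each lower in 6 of 6 retinas without overlap. With 6 retinas the exact test cannot go below p = 0.0312, so neither could readily pass after adjustment (adjusted p = 0.0586 for both). SLIT3 did not pass with any of the markers. Within RGCs, SLIT2+ nuclei averaged 306 CPM of ROBO1 and the others 402 CPM (ratio 0.71, adjusted p = 0.0196, exact test).

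**Figure D4:**
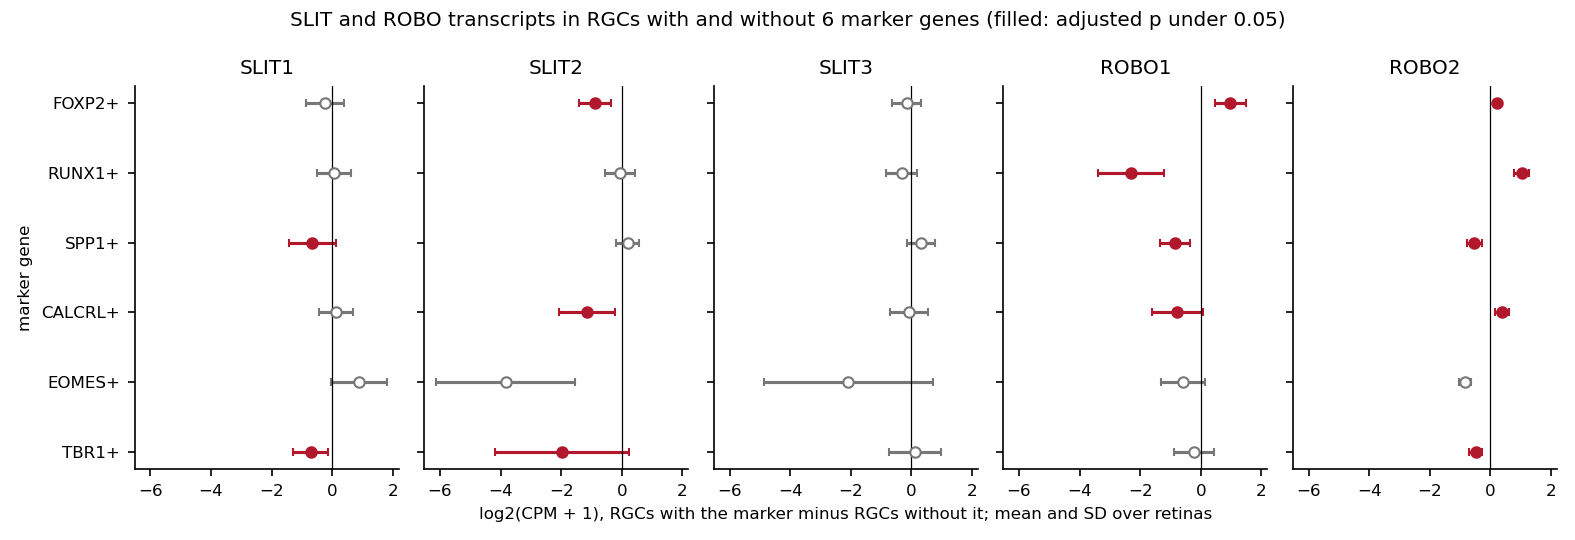
Difference in log2(CPM + 1) between RGCs with and without each of 6 marker genes, for 5 members; points are means and bars SDs over retinas, filled where the adjusted p is under 0.05. ROBO2 is highest with RUNX1 (2.04-fold) and ROBO1 lowest there (0.204), while SLIT2 is low with FOXP2, CALCRL and TBR1.

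Stages were compared within each class with edgeR's quasi-likelihood test over all features that passed its filter, with Benjamini-Hochberg adjustment over features and the Cell Ranger version as a covariate. None of the 102 member tests passed an adjusted p of 0.05. At an unadjusted p under 0.05 there were 15 (14.7%, against 9.04% of all features), and the lowest adjusted p was 0.214. That was SLIT2 in ACs for Mature against Infancy (log2 fold change 0.324 ± 0.105, SE). Senile against Mature gave -0.24 ± 0.105 for it (adjusted p = 0.475, edgeR). DESeq2 also called 0, with 15 at an unadjusted p under 0.05 and a lowest adjusted p of 0.115. Without the filter on low counts edgeR called 4, and with the retinas of version 6.1.2 alone 3. Of the members, the filter passed 5 in cones, ACs and RGCs, 4 in BCs, Müller cells and astrocytes, 3 in HCs and 2 in rods and microglia.

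Few features of any kind passed. For Mature against Infancy, Senile against Infancy and Senile against Mature, the share of all tested features called was 0.568, 1.06 and 0.0% in ACs, 0.931, 1.09 and 0.0% in BCs and 0.699, 1.02 and 0.0% in RGCs. It was 1.32, 1.91 and 0.0% in cones, 0.223, 0.35 and 0.0% in rods and 0.0717, 0.239 and 0.0% in HCs. In the glia it was 0.848, 1.09 and 0.0399% in Müller cells, 0.0878, 0.0439 and 0.0% in astrocytes and 0.0, 0.0 and 0.0% in microglia. For the sums over whole retinas it was 0.983, 1.59 and 0.00361%. A count of 0 members called is near this background.

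**Figure D5:**
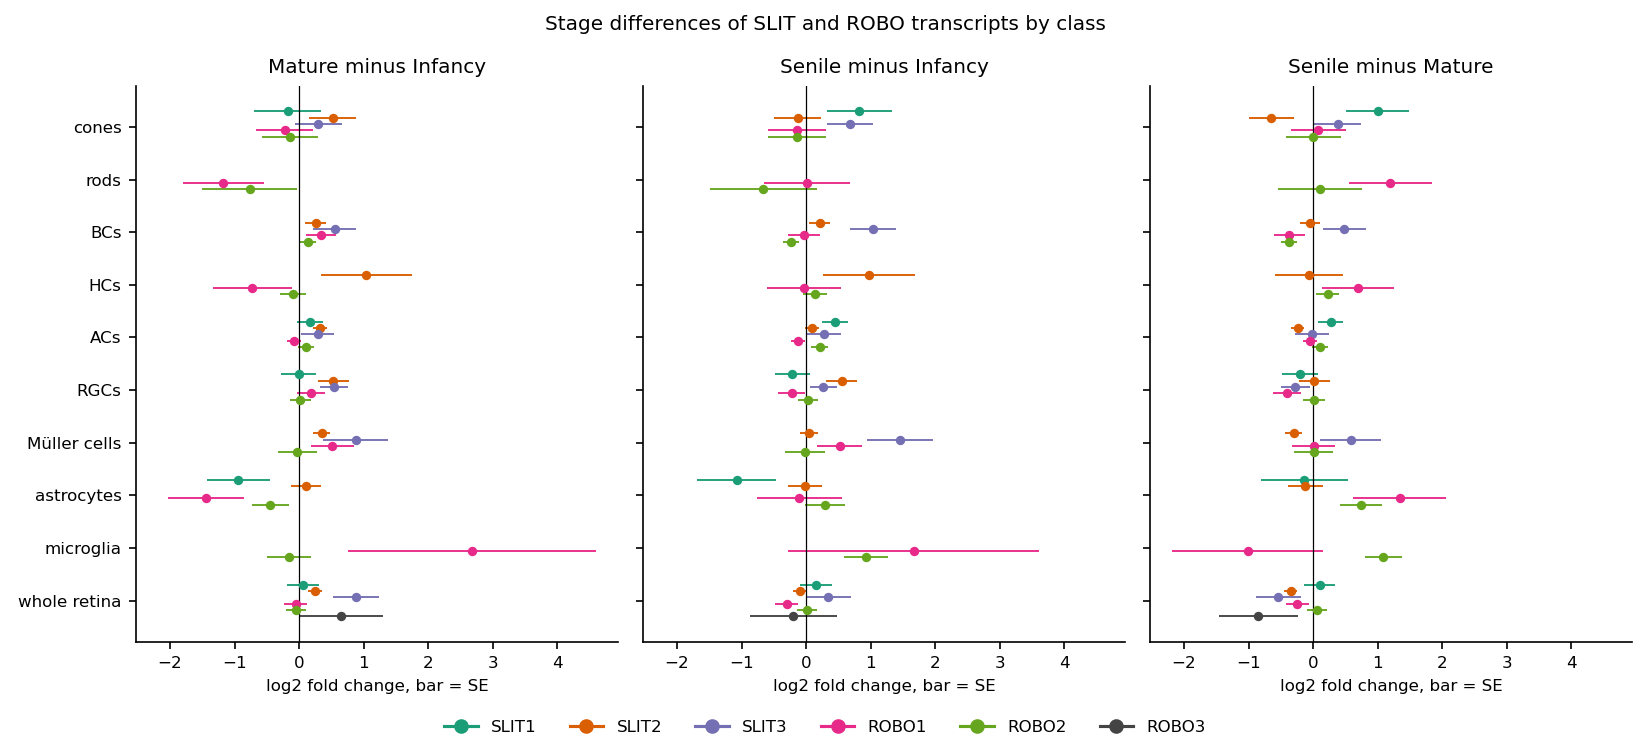
log2 fold change of the members between stages in each class for the 3 contrasts; points are edgeR estimates coloured by gene and bars are standard errors. Estimates lie around 0 in ACs (-0.24 to 0.44) and RGCs (-0.4 to 0.55) and scatter most in microglia (-1.01 to 2.68), and none passed the adjusted threshold.

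SLIT2 in RGCs overlapped between stages and differed between the retinas of the Cell Ranger versions. The infant retinas were at 234, 206, 156, 105 and 40.8 CPM, the mature ones at 281, 223, 167 and 149 CPM and the senile ones at 235, 236, 204, 172 and 150 CPM. In every stage the retinas of version 6.1.2 lay above those of 7.0.1, at 156 to 281 CPM and 40.8 to 204 CPM over all stages, and the lowest values were those of 2 infant retinas of 7.0.1. The log2 fold change was 0.53 ± 0.241 (SE) for Mature against Infancy (adjusted p = 0.614, edgeR), 0.55 ± 0.237 for Senile against Infancy (adjusted p = 0.722) and 0.02 ± 0.241 for Senile against Mature (adjusted p = 0.998). The fourth mature retina had under 10 RGC nuclei and did not enter.

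ROBO2 in RGCs was at 8410, 6940, 6840, 8100 and 8950 CPM in infancy, 8570, 7080, 8840 and 8900 CPM in mature and 9340, 9280, 5490, 10800 and 8710 CPM in senile retinas. The stages overlapped fully and the senile group held both the lowest and the highest retina. The estimates were 0.02 ± 0.163, 0.03 ± 0.155 and 0.01 ± 0.163 (log2 fold change with SE, lowest adjusted p = 0.996, edgeR). ROBO1 in RGCs was at 351, 356, 386, 391 and 261 CPM, then 362, 293, 361 and 710 CPM, then 414, 288, 259, 362 and 342 CPM, with the highest value in a retina of 31 RGC nuclei.

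In Müller cells, SLIT2 was at 419, 345, 331, 279 and 408 CPM in infancy, 509, 475, 444, 408 and 459 CPM in mature and 342, 416, 389, 350 and 421 CPM in senile retinas. The ranges overlapped and the mature mean was highest, with an estimate of 0.35 ± 0.133 over infancy (log2 fold change with SE, adjusted p = 0.374, edgeR). In BCs, ROBO2 was at 3670, 3380, 3470, 3570 and 3720 CPM, then 4380, 3130, 4980, 3560 and 4200 CPM, then 3800, 2710, 2980, 3560 and 2900 CPM. Senile against Mature gave -0.37 ± 0.125 (adjusted p = 0.357, edgeR). SLIT1 in ACs was at 170, 169, 157, 77.4 and 122 CPM in infancy and at 149, 204, 237, 172 and 149 CPM in senile retinas, which overlapped (0.44 ± 0.202, adjusted p = 0.579, edgeR), and the estimate was -0.03 with version 6.1.2 alone. For SLIT3, Senile against Infancy gave 1.03 ± 0.357 in BCs (adjusted p = 0.303, edgeR) and 1.455 ± 0.516 in Müller cells (adjusted p = 0.328, edgeR). It gave 0.676 in cones, 0.27 in ACs and 0.267 in RGCs. Without Mature 4 it gave 1.057 in BCs and 1.457 in Müller cells. Infant and senile ranges overlapped in BCs but not in Müller cells, at 0 to 8.32 and 8.62 to 23.4 CPM from 162 UMIs in all.

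Summed over whole retinas, 0 of 18 member tests passed, with 3 at an unadjusted p under 0.05 and a lowest adjusted p of 0.35 (edgeR), and DESeq2 called 0, with 3 at an unadjusted p under 0.05 and a lowest adjusted p of 0.0507. SLIT2 medians were 207, 234 and 194 CPM from infancy to senile retinas, with ranges of 163 to 230, 220 to 258 and 183 to 210 CPM, so the mature and senile ranges did not overlap (-0.35 ± 0.1, log2 fold change with SE, adjusted p = 0.367, edgeR). ROBO2 medians were 2790, 2590 and 2800 CPM, ROBO1 405, 425 and 366 CPM and SLIT1 60.9, 57.8 and 57.0 CPM.

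SLIT3 over whole retinas turned on the retina Mature 4. This library had 175 CPM, and the estimate for Mature against Infancy fell from 0.88 to 0.35 on the log2 scale without it, as that for Senile against Mature went from -0.54 to 0.03. In it, 29.0% of the nuclei lay in clusters that no marker list named, and 3 such clusters with 320 nuclei held 68.1% of its SLIT3 UMIs, at 2270 to 2730 CPM. These clusters also had 396 to 6080 CPM of BFSP1, 448 to 3040 CPM of BFSP2 and 569 to 660 CPM of GJA3, beaded filament and connexin genes known from the lens. Without them the library had 58.9 CPM of SLIT3. ROBO3 turned on the same retina, which gave 181 of its 454 UMIs in kept nuclei, 89 of them in a cluster with high ENPP2, and the estimate for Mature against Infancy changed from 0.65 to -0.23 without it.

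Other genes of the pathway were taken as a list of 44, covering cytoplasmic effectors, heparan sulfate enzymes and carriers, alternative ROBO ligands and the netrin receptors that work beside ROBOs. Per class 11 to 33 passed the filter, and over whole retinas 37. Of 696 stage tests of the list in classes, 1 rise and 1 fall passed (0.287%, beside 0.604% of the tests of all features), and the medians over the list lay between -0.245 and 0.307 on the log2 scale, beside medians of all features between -0.028 and 0.037. ARHGAP39, CDC42, NCK1 and NCK2 were listed at 0 in all libraries.

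The rise was DCC in BCs, the netrin receptor whose attraction SLIT-bound ROBO1 can silence. It was at 1090, 1030, 1160, 1070 and 1230 CPM in infancy, 1260, 1430, 1410, 1270 and 1440 CPM in mature and 1560, 1600, 1520, 1580 and 1540 CPM in senile retinas, so that the 3 stages did not overlap. Senile against Infancy gave 0.41 ± 0.0763 (log2 fold change with SE, adjusted p = 0.00777, edgeR), in a contrast where 1.09% of features passed. It passed in 15 of 15 fits without 1 retina and in 4 of 10 other settings, with adjusted p up to 0.573 there, while the estimate stayed between 0.31 and 0.44.

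The fall was NELL2 in ACs, a secreted ligand of ROBO3. It was at 76.5, 94.9, 109, 82.9 and 78.9 CPM in infancy, 75.9, 60.3, 68.2, 49.3 and 64.8 CPM in mature and 77.6, 72.5, 62.0, 55.2 and 45.7 CPM in senile retinas. The infant and senile groups overlapped at 1 retina, and Senile against Infancy gave -0.57 ± 0.132 (adjusted p = 0.0485, edgeR), in a contrast where 1.06% of features passed. This call passed in 2 of 15 fits without 1 retina, with adjusted p of 0.0283 to 0.187, and in 4 of 10 other settings.

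Across classes, the effectors had their own pattern. Of the SLIT-ROBO GTPase-activating proteins, SRGAP1 was highest in RGCs at 926 ± 132 CPM (mean and SD over retinas), SRGAP3 in Müller cells at 846 ± 185 CPM and SRGAP2 in microglia at 232 ± 85.1 CPM. For SRGAP3, astrocytes were close at 802 CPM. Of the heparan sulfate genes, which SLITs need to bind ROBOs, the polymerase EXT1 was highest in BCs at 1340 ± 114 CPM and the carrier SDC2 in Müller cells at 308 ± 50.9 CPM. NELL1 and NELL2 were both highest in RGCs, at 509 ± 103 and 405 ± 51.2 CPM, with NELL2 near that in rods at 402 CPM. DCC was at 1450 ± 208 CPM in RGCs and 1350 CPM in BCs. ROBO4, the endothelial member of the receptor family, had 116 UMIs in all.

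The features most like each member were ranked by Pearson's r of log2(CPM + 1) over 116 sums of class and retina, among 15099 features, as a description, since the points share libraries and classes. SLIT1 was most like CACNB4 (0.753), GRIN2A (0.748), CNTN5 (0.733), GABRA2 (0.73) and PTPRS (0.729), which include subunits of calcium, glutamate and GABA channels. SLIT2 was most like MID1, FIGN and LINC-USP25-14 (each 0.846), SORCS2 (0.842) and ZBTB16 (0.838). For SLIT3 the list began with its antisense feature SLIT3-AS-5 (0.695), followed by DCDC1li1 (0.683), DTWD2 (0.679), MACROD2 (0.674) and MCF2L2 (0.665). ROBO1 was most like the Reelin adaptor gene DAB1 (0.831), CELF4 (0.811), the glutamate receptor gene GRM5 (0.803), its antisense feature ROBO1-AS-7 (0.802) and MMP16 (0.778). ROBO2 had the highest values, with MAPT, which encodes tau (0.897), the potassium channel gene KCNH7 (0.874), APBA1 (0.866), LINC-PLIN3-8 (0.864) and CTTNBP2 (0.85). ROBO3 had the lowest, with BCAM (0.553), PTPRG-AS-4 (0.514), NPR3 (0.499), LINC-RNF144B-9 (0.496) and TSORFli2186 (0.488). Between members, ROBO1 and ROBO2 had r = 0.704, SLIT2 had 0.474 with ROBO2 and 0.451 with ROBO1, and SLIT2 and SLIT3 had 0.015.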

How the data were processed

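Single-nucleus libraries of 15 retinas were analysed. The deposited files hold raw UMI counts per feature and barcode that the authors made with Cell Ranger on the TS_3.0 genome. The processing notes name versions 5.0.1 and 7.0.1, the file headers 6.1.2 and 7.0.1. Whether reads in introns were counted is not given in the sources used here. Gene spans come from RefSeq, whose assembly (TupChi_1.0) is another build. All members, gene lists and marker lists were chosen with earlier results of these data known.

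A barcode was kept if it had over 200 and under 6000 genes and its mitochondrial share was below 5%. Predicted doublets were removed by their share of simulated doublets among neighbours (8 per 1000 nuclei for each 1000). Nuclei were clustered without the members (2000 variable genes, 30 components, 20 neighbours, Leiden resolution 2). A class needed a mean marker score 0.3 above the next list, at least 3 markers detected (2 in HCs) and agreement with the neighbours. The gate's thresholds, the subclasses, the RGC markers and the pairs within BC types were set after the data were seen.

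UMIs were summed per class and retina and tested with edgeR 4.0.16 (R 4.3.3, TMM, filterByExpr, quasi-likelihood, stage and version as terms), with DESeq2 1.42.0 as an alternative. Levels used log2(CPM + 1), at least 10 nuclei, and exact sign-flip tests (scipy 1.17.1) with at least 6 retinas. Marker subsets needed at least 10 nuclei on either side. In simulated data for Senile against Infancy, 87% of 4-fold and 42% of 2-fold changes were found in BCs, 78 and 45% in RGCs and 42 and 5% in microglia. Same-numbered retinas were not taken as pairs. Of 15 correlations of their deviations, 13 passed 0.1 from stage means and 2 from means of stage and version. With so few retinas per stage and version, the latter check can hardly detect pairing. Named by rule were the members, the pathway genes that passed and the 5 features most like each member. Other pathway levels, and stage values of members other than SLIT2 and ROBO1 in RGCs, were chosen after their values were seen.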

Additional observations from a re-analysis of the deposited data

Results flagged for a closer look

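In 104 groups of retinas of 1 stage, 9 had a retina far from the others by Dixon's criterion, and chance flags about 1 in 20 groups. In cones, SLIT1 was high in Mature 3 (4.87 CPM, next 2.34) and Senile 3 (14.6, next 4.76), and Infancy 5 was high in SLIT2 (24.9, next 10.3) and ROBO1 (42.4, next 20.5). SLIT3 in BCs was high in Infancy 1 (26.0 CPM, next 10.8). ROBO1 in RGCs was high in Mature 5 (710 CPM, next 362), which had 31 RGC nuclei. Over whole retinas, Mature 4 was high in SLIT3 (175 CPM, next 69.6) and ROBO3 (5.57, next 0.708) and low in ROBO2 (1470, next 2540).

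A signal outside the named classes was SLIT3 in an unnamed cluster of Mature 4, at 2730 CPM. Unnamed clusters with high SLIT3 were also found in Infancy 4 (112 nuclei, 1210 CPM of SLIT3 and 1610 CPM of BFSP1) and Infancy 5 (32 nuclei, 1630 CPM of SLIT3 and 580 CPM of GJA3).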

How the results depend on the processing

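The count of member stage calls was 0 and stayed 0 with DESeq2, without the version term and with the replicate block (0, not fitted for rods, HCs and microglia). It became 4 without a filter on low counts (ROBO2 in 2 contrasts and ROBO1 in 1 in BCs, SLIT3 in astrocytes) and 3 in the retinas of version 6.1.2 alone, and ranged from 0 to 1 when 1 retina was left out: SLIT3 in BCs was called without Infancy 1 (log2 1.373, adjusted p = 0.0387) and ROBO1 in HCs without Mature 3 (2.434, adjusted p = 0.0486). The cause was not tested. Whole-retina calls were 0 to 0.

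The difference in log2 between the highest and next class kept its sign but lost the threshold for SLIT2 with classes from clusters (0.56) and with a gate without agreement of the neighbours (0.37), for SLIT3 with a stricter gate (0.58), and with either version alone, where the exact test over at most 8 retinas can hardly pass: 1.59, 0.5, 1.37 and 1.2 for SLIT1, SLIT2, SLIT3 and ROBO2 with 6.1.2, and 1.57, 0.82, 0.34 and 1.2 with 7.0.1. It reversed for ROBO1 between BCs and ACs with a stricter gate (-0.12) and with 6.1.2 alone (-0.04), and for ROBO3 with clusters (-0.21) and thinning (-0.6). Leaving out 1 retina gave 1.54 to 1.61, 0.61 to 0.71, 0.78 to 0.97, 0.13 to 0.23, 1.16 to 1.23 and 0.05 to 0.42 for SLIT1, SLIT2, SLIT3, ROBO1, ROBO2 and ROBO3.

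Subclass calls were 17 to 20 when 1 retina was left out and 14 or more with 1 version. RGC marker calls were 12 to 15 when 1 was left out, 12 of 25 with version 6.1.2 and 0 of 5 run with 7.0.1, where too few retinas remained to run the other comparisons. SLIT2 in RGCs, Senile against Mature, reversed to -0.12 without the version term, -0.09 with clusters, -0.06 with doublets kept, -0.08 with a stricter gate and -0.23 with 6.1.2, and to -0.1 at the lowest when 1 retina was left out. ROBO1 in RGCs, Mature against Infancy, reversed to -0.21 with 6.1.2 and ranged from -0.11 to 0.33 when 1 retina was left out. SLIT1 in ACs, Senile against Infancy, was -0.03 with 6.1.2. ROBO2 in RGCs, near 0 in every contrast, reversed for Mature against Infancy with clusters (-0.05), doublets kept (-0.02), the gate without the neighbours (-0.19) and 7.0.1 (-0.01), for Senile against Infancy with clusters (-0.13) and 7.0.1 (-0.06) and for Senile against Mature with the replicate block (-0.08), clusters (-0.08) and 7.0.1 (-0.06). Leaving out 1 retina gave -0.03 to 0.06, -0.07 to 0.15 and -0.08 to 0.14. The test of whether stage differences depended on the class was not run, since no member was called. Of 10 neighbouring classes called in order, 8 to 10 were called again in the settings other than 1 version alone, and 0 reversed in any setting run. Alternatives chosen after seeing the data were the gate without the neighbours, totals without the abundant LINC-FRMD8-1, the versions alone over whole retinas, the gate, doublet and version settings of single members, and all settings of the subclass, RGC marker, DCC and NELL2 results.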

Other observations

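Among clusters made without the members, the AC cluster with most ROBO1 in each retina is given as a description, because it was chosen on the level of ROBO1 itself. It held 34 to 254 nuclei and 2760 to 4290 CPM of ROBO1. In 10 retinas this cluster had more EBF2, a transcription factor gene, than TAC1, with 302 to 527 CPM of EBF2 and 1090 to 2540 CPM of ROBO2. In the other 5 it had more TAC1, the gene of substance P, than EBF2, with 147 to 2630 CPM of TAC1 and 195 to 2770 CPM of ROBO2. Only these genes were used to sort the clusters. In Mature 4, Senile 4 and Senile 5, SULF1 at 582, 972 and 1070 CPM was above TAC1 at 188, 147 and 224 CPM. The highest cluster was thus not of 1 kind in all retinas.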
